A study of Mus musculus with 6 samples.

Results

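The transcription factor p53 (gene Trp53) and 35 genes that it is known to activate were followed in mouse embryonic stem cells with a mutant DGCR8, no DGCR8 or wild-type DGCR8. These 36 genes were taken by symbol from a list of known p53 targets, and all 36 were found among the 21978 entries of the deposited count table. The list was chosen with earlier results of these data known, so counts over it are not evidence independent of them. The libraries of messenger RNA came from 6 cultures, 2 in each of 3 groups. E518K cells (clones 8 and 15, genotype label DGCR8 E518K/E518K) had received a vector for doxycycline-induced, Flag-tagged DGCR8 with the E518K substitution together with a transposase plasmid. KO cells (libraries 1 and 3, genotype label DGCR8 -/-) were not transfected, and both of their titles carry clone number 261. Cells of the wt group (clones 12 and 16, genotype label DGCR8 wt/wt) had received the same vector with wild-type DGCR8. All 6 cultures were treated with 300 ng/mL doxycycline for 48 h, and all were grown without feeders in serum medium with LIF, the GSK3 inhibitor CHIR99021 and the MEK inhibitor PD0325901. A difference between KO and either other group therefore cannot be told apart from transfection and clone selection, and the spread between the KO libraries, which the p-values rest on, may be technical.

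In most cells p53 protein is kept low by Mdm2, a ubiquitin ligase that p53 itself activates, and by the Mdm2 relative Mdm4. DNA damage and other stresses release p53, which then binds its DNA motif near genes of growth arrest, DNA repair, apoptosis and metabolism. Embryonic stem cells hold a large amount of p53, much of it outside the nucleus. DGCR8 is the partner of Drosha in the enzyme complex that cuts miRNA precursors out of primary transcripts, so cells without it lack most miRNAs, and in mouse embryonic stem cells the miR-290 and miR-302 families are abundant among these. The messenger RNA measured here does not report the amount or the activity of p53 protein.

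Library totals lay between 73642784 and 75121971 counts. Dgcr8, the gene altered in the design, was at 821 and 420.2 CPM (counts scaled for library size) in E518K cells, 40.0 and 37.1 CPM in KO cells and 195.5 and 992 CPM in wt cells, so the wt clones differed widely in its level; a count per gene does not separate transcripts of the vector from those of the chromosomal gene. The 10 embryonic stem cell markers checked, among them Pou5f1 and Nanog, were all detected, with a summed level of 6762 and 6736 CPM in E518K, 5658 and 5565 CPM in KO and 7456 and 6395 CPM in wt cells. Of these 10 markers 1 was higher and 8 were lower in KO than in wt by the test used below, against 27.4% and 29.7% of all genes tested. The part of this difference in the results below was not tested. The 8 fibroblast markers summed to 4.08 and 3.57 CPM in E518K, 5.38 and 5.69 CPM in KO and 7.59 and 7.57 CPM in wt cells. The 13 markers of differentiated lineages summed to between 19.1 and 25.2 CPM in the 6 libraries. In such bulk samples fewer cells of a type and less RNA per cell cannot be told apart.

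Most of the listed genes that changed between KO and wt cells were higher in KO, and few of the list were called between E518K and wt cells. The first pattern was not seen in 21 further p53 targets tested, of which 8 were higher and 9 lower in KO than in wt. Of the 36 genes, 35 passed the filter on low counts, and Fas did not. Between KO and wt, 19 of the 35 were higher and 3 were lower at an adjusted p under 0.05 (edgeR quasi-likelihood test, Benjamini and Hochberg adjustment over 16498 genes). Those are 54.3% and 8.57% of the genes followed, against 27.4% and 29.7% of all genes tested, of which 57.2% were called in either direction. The median log2 fold change was 0.32 for the 35 genes and -0.02 for all genes tested. Between E518K and wt, 4 were higher and 1 was lower, or 14.3% in either direction against 23.7% of all genes, with medians of -0.05 and -0.02. Between E518K and KO, 4 were higher (11.4%, against 22.0% of all genes) and 19 were lower (54.3%, against 19.8%; 41.8% of all genes in either direction), with medians of -0.53 and -0.02. The 3 comparisons share libraries, since each group enters 2 of them, and they are not independent of one another.

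**Figure D1:**
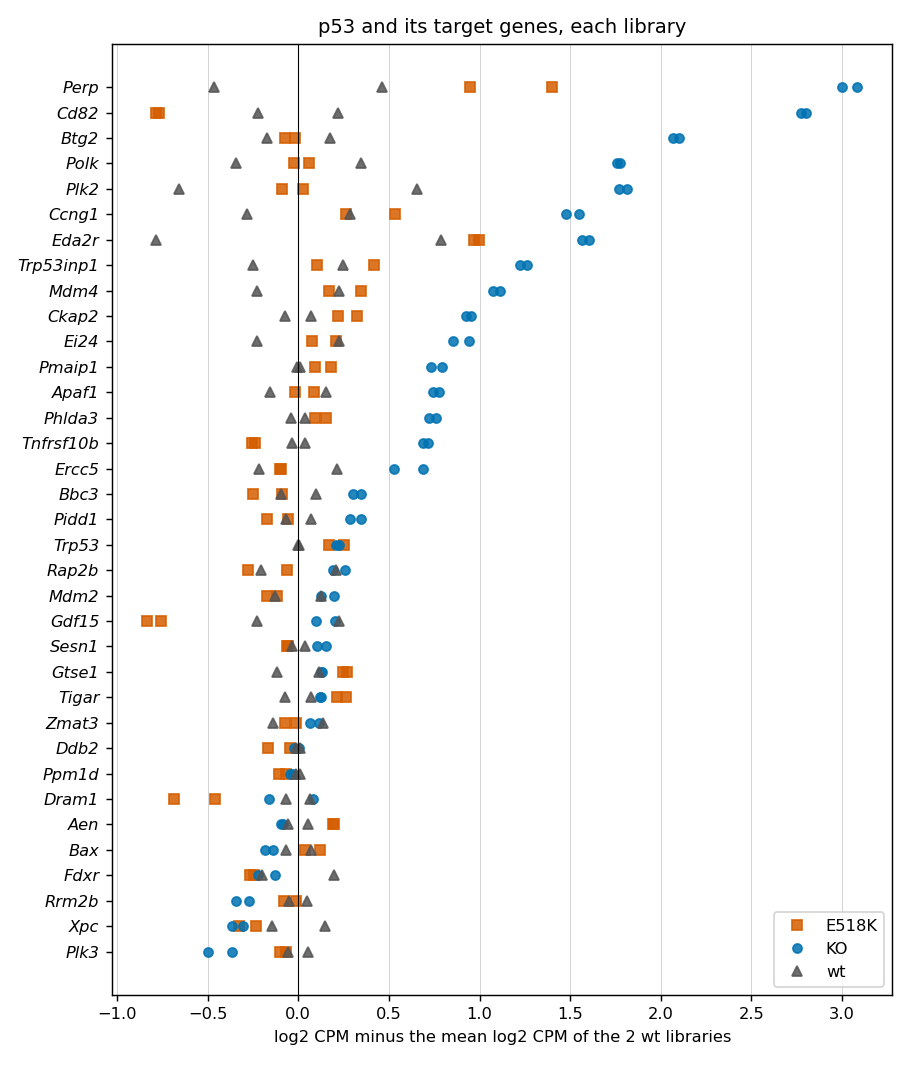
Level of each of the 35 tested genes in each library, as log2 CPM minus the mean log2 CPM of the 2 wt libraries (x axis), with genes ordered by the fold change of KO against wt. Squares are E518K, circles KO and triangles wt libraries. The KO circles stand far to the right for genes from Perp down to Tnfrsf10b, whereas the E518K squares lie near the wt triangles for most genes.

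Sequence features of the 36 genes are shown first, since they bear on the regulators named above. Because the genes were listed as known p53 targets, the share of them with a p53 motif is not independent of that choice. The promoter window, 250 bases before to 50 bases after a transcription start, was in the RefSeq table (GRCm38.p6) for 28 of them. It was searched for the p53 decamer, the 10-letter consensus of which p53 binds a pair, which reads the same on both strands. A perfect match lay in the window of 12 of 28 genes (42.9%), against 987 of 11657 genes tested (8.47%). A pair of perfect matches 0 to 13 bases apart was in none of the 28 windows and in 0.0686% of those of all genes tested. Many p53 sites lie outside this window or deviate from the consensus, so the absence of a match says only that these letters are not there. Upstream stretches of 6 genes that the results below turn on follow, with the decamer in capitals.
Ccng1, chr11:40755437-40755496, minus strand: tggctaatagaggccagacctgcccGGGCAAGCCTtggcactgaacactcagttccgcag
Mdm2, chr10:117710910-117710969, minus strand: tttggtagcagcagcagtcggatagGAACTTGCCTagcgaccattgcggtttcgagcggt
Trp53, chr11:69580259-69580318, plus strand: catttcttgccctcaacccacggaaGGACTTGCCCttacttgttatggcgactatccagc
Bax, chr7:45467065-45467124, minus strand: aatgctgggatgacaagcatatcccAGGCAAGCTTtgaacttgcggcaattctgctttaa
Ckap2, chr8:22185988-22186047, minus strand: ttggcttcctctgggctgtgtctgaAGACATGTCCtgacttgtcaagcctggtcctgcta
Ei24, chr9:36797335-36797369, minus strand: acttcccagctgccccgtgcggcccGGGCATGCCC

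The decamer begins 185 bases before the start in Ccng1 (position -185), and at -186 in Mdm2, -75 in Trp53, -201 in Bax, -203 in Ckap2 and -10 in Ei24. Of the 12 genes with a match, 5 were higher in KO than in wt and 7 were not called, with a median log2 fold change of 0.18. Of the 15 tested genes whose window held no match, 10 were higher, 1 was lower and 4 were not called, with a median of 0.59. Whether these groups differ was not tested.

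The miR-290 and miR-302 families were compared with the 3′ UTRs of the same genes, because their seed, bases 2 to 8 of the mature miRNA, pairs with messenger RNA. The RefSeq table held 5 mature miRNAs with the seed of miR-294, of which 3 are shown with the seed in capitals (GRCm38.p6).
miR-291a-3p, chr7:3218968-3218989, plus strand: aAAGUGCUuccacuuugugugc
miR-294-3p, chr7:3220691-3220712, plus strand: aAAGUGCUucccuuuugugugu
miR-302b-3p, chr3:127545275-127545297, plus strand: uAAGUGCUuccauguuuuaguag

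The DNA letters that pair with this seed, AGCACTT, occurred in the longest annotated 3′ UTR of 7 of the 36 genes (19.4%), against 2500 of 14954 genes tested (16.7%). Only the transcript strand was searched, and a match is a description and not a shown target site. The matches in 4 genes are given with 10 bases on either side, because they include genes called higher in KO than in wt and 1 called lower (GENCODE M21, GRCm38).
Ccng1, chr11:40750543-40750569, minus strand: ttactgaaatAGCACTTctttaaatta
Polk, chr13:96481574-96481600, minus strand: cttacatataAGCACTTggttcacata
Trp53inp1, chr4:11174216-11174242, plus strand: tgaacagcacAGCACTTtgccaaaaaa
Rrm2b, chr15:37926855-37926881, minus strand: ttttgtcataAGCACTTaagatggcat

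The other 3 matches were in Ei24, Zmat3 and Dram1. Between KO and wt the median log2 fold change was 0.88 for the 7 genes with a match and 0.27 for the 28 tested genes without one, beside 0.21 and -0.08 for all genes tested with and without one. Rrm2b is 1 of the 7 and was lower in KO, as given below. In E518K against wt the medians were -0.02 with and -0.07 without a match, beside 0.02 and -0.03 for all genes tested. These differences were not tested.

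Trp53 itself changed little. The gene (chromosome 11, 69580359 to 69591873, plus strand, GRCm38) was at 471 and 444 CPM in E518K, 461 and 457 CPM in KO and 394 and 396 CPM in wt cells. All 4 libraries of E518K and KO cells lay above both wt libraries, while E518K and KO overlapped. KO exceeded wt by a log2 fold change of 0.22 ± 0.06 (SE; adjusted p = 0.0139), E518K exceeded wt by 0.21 ± 0.06 (adjusted p = 0.0356), and E518K against KO stood at -0.01 ± 0.06 (adjusted p = 0.944). The call in KO was lost without KO library 1 (0.21, adjusted p = 0.125), without KO library 3 (0.22, adjusted p = 0.105), with the KO libraries summed to 1 (0.22, adjusted p = 0.109) and with upper-quartile scaling (0.16, adjusted p = 0.0567). The call in E518K was lost without E518K clone 8 (0.17, adjusted p = 0.151), without E518K clone 15 (0.26, adjusted p = 0.0843), without either KO library (0.21 in both fits, adjusted p = 0.119 and 0.118) and under 5 other settings. Per span length, Trp53 was among the most abundant of the 36 genes, at a mean of 252 TPM (counts divided by gene length and then scaled by library) in E518K, 273 TPM in KO and 228 TPM in wt cells, while Bax had 346 TPM in E518K, 316 TPM in KO and 342 TPM in wt cells.

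Of Trp53 and its 3 feedback inhibitors, 2 were higher in KO than in wt, 1 was higher in E518K than in wt and 2 were lower in E518K than in KO. Over all genes tested these shares were 27.4%, 11.3% and 19.8%. The inhibitors did not all change. Mdm4, which binds p53 and blocks its activity, was at 177 and 201 CPM in E518K, 342 and 333 CPM in KO and 135 and 185 CPM in wt cells. Both KO libraries stood above all 4 others, and the log2 fold change was 1.08 ± 0.14 in KO against wt (adjusted p = 0.000724), -0.84 ± 0.14 in E518K against KO (adjusted p = 0.00324) and 0.24 ± 0.14 in E518K against wt (adjusted p = 0.243). Mdm4 was called higher in E518K than in wt without wt clone 16 (0.49). Mdm2, the ligase that marks p53 for destruction and a sensitive p53 target, was at 73.0 and 76.0 CPM in E518K, 94.3 and 89.8 CPM in KO and 75.5 and 89.8 CPM in wt cells. KO library 3 and wt clone 16 were almost level, and the fold change of KO against wt was 0.16 ± 0.09 (adjusted p = 0.184). Mdm2 was called higher in KO than in wt without wt clone 16 (0.28). In E518K against wt it was not called with all libraries (-0.15 ± 0.09, adjusted p = 0.27) and was called lower without wt clone 12 (-0.27). Mdm2 was lower in E518K than in KO, at -0.31 ± 0.09 (adjusted p = 0.033), a call lost without any 1 of the KO or E518K libraries (-0.27 to -0.34, adjusted p of up to 0.197). Ppm1d, the phosphatase Wip1 that switches the damage response off, lay between 27.3 and 29.6 CPM in all 6 libraries, with log2 fold changes from -0.09 to -0.04 and no call.

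**Figure D2:**
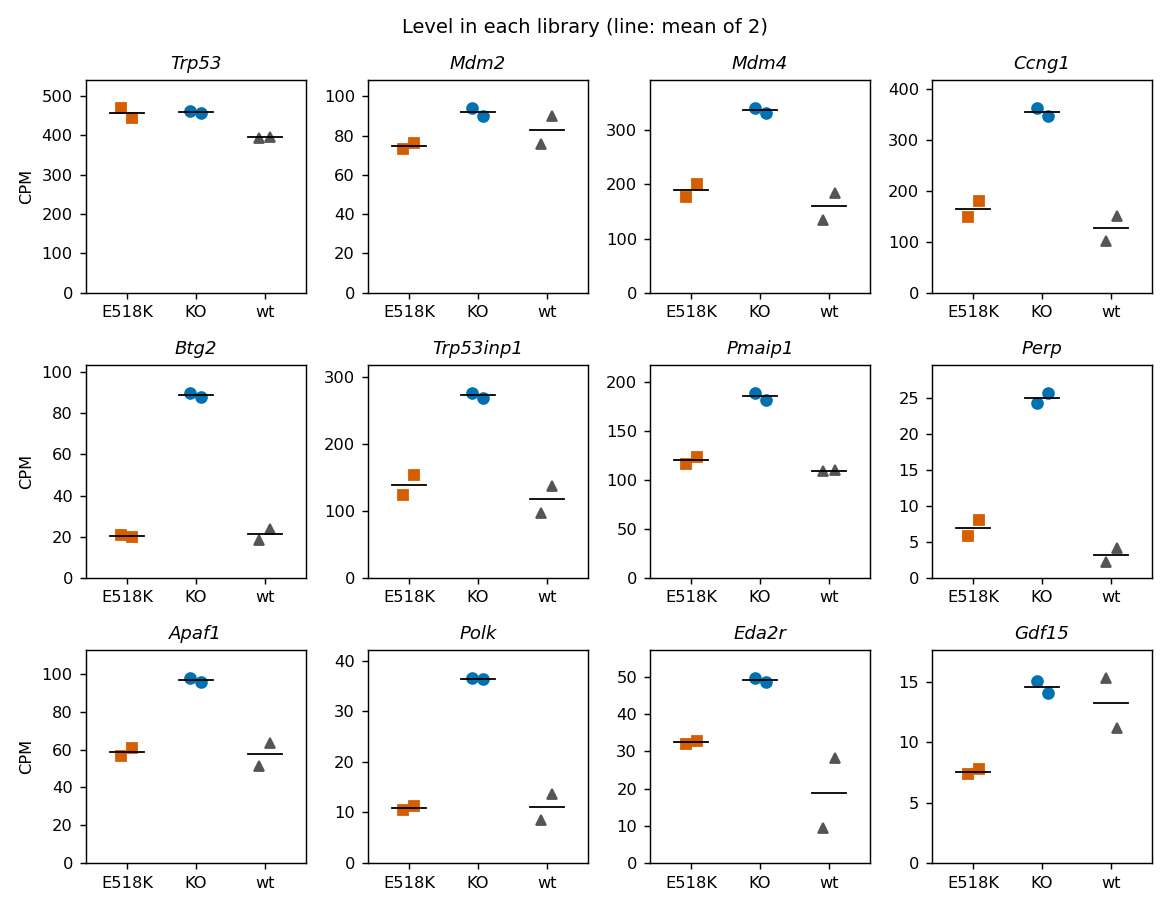
CPM (y axis, from 0) of 12 genes in each library of the 3 groups (x axis); each symbol is 1 library and the line is the mean of 2. For Mdm4, Ccng1, Btg2, Trp53inp1, Pmaip1, Perp, Apaf1 and Polk both KO libraries stand clear of the other 4, whereas KO library 3 and wt clone 16 are almost level for Mdm2 and Gdf15 is lowest in E518K.

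Among the 12 genes of death receptors and apoptosis, 11 were tested, and 9 were higher in KO than in wt while 2 were not called. Between E518K and wt 1 was higher and 10 were not called, and between E518K and KO 2 were higher and 8 lower. Of all genes tested, 27.4% were higher in KO than in wt and 11.3% higher in E518K than in wt. Between E518K and KO, 22.0% of all genes were higher and 19.8% lower. Pmaip1 encodes Noxa, a BH3-only protein that neutralises Mcl1. It was at 117 and 124 CPM in E518K, 189 and 182 CPM in KO and 108.6 and 109.7 CPM in wt cells, and the log2 fold change was 0.76 ± 0.06 in KO against wt (adjusted p = 0.000112) and 0.14 ± 0.06 in E518K against wt (adjusted p = 0.15). Bbc3, the BH3-only protein Puma, had 15.6 and 14.0 CPM in E518K, 20.4 and 21.1 CPM in KO and 15.5 and 17.7 CPM in wt cells. Its change in KO of 0.32 ± 0.11 passed narrowly (adjusted p = 0.043) and was lost in 5 of the 6 fits that each left out 1 library, all but that without wt clone 16 (0.23 to 0.34, adjusted p from 0.0554 to 0.219). Bax, which opens the mitochondrial outer membrane, ran the other way in level, at 291 and 276 CPM in E518K, 244 and 236 CPM in KO and 281 and 256 CPM in wt cells. KO was the lowest group, yet the difference from wt of -0.16 ± 0.07 was not called by edgeR with all libraries (adjusted p = 0.0777). It was called with upper-quartile scaling (-0.22, adjusted p = 0.0257) and without wt clone 16 (-0.23). The difference of E518K from KO of 0.24 ± 0.07 (adjusted p = 0.0274) was lost without any 1 of the KO or E518K libraries (0.20 to 0.30).

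Perp, a desmosome protein of the plasma membrane that takes part in p53-dependent death, had the largest fold change of the 35 genes between KO and wt with all libraries; without wt clone 12 that of Cd82 was larger (3.00, against 2.58 for Perp). It was at 5.86 and 8.02 CPM in E518K, 24.3 and 25.8 CPM in KO and 2.21 and 4.19 CPM in wt cells. The 3 groups did not overlap, with E518K between KO and wt. The log2 fold change was 2.97 ± 0.30 in KO against wt (adjusted p = 0.000241), 1.12 ± 0.29 in E518K against wt (adjusted p = 0.0323), while E518K differed from KO by -1.85 ± 0.28 (adjusted p = 0.00213). The E518K call against wt was lost without E518K clone 15 (0.88, adjusted p = 0.204), E518K clone 8 (1.33, adjusted p = 0.0756), KO library 1 or KO library 3 (1.12 in both fits, adjusted p = 0.0645 and 0.0648), whereas the other 2 comparisons were called in all 6 such fits.

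Apaf1, Trp53inp1, Ei24 and Pidd1 were also higher in KO than in wt, and Aen was not. Apaf1, the scaffold of the apoptosome, had 56.5 and 60.6 CPM in E518K, 98.0 and 95.6 CPM in KO and 51.4 and 63.6 CPM in wt cells, with a change in KO of 0.75 ± 0.11 (adjusted p = 0.00096). In E518K against wt Apaf1 was not called with all libraries (0.03 ± 0.105, adjusted p = 0.875) and was called higher without wt clone 16 (0.19). Trp53inp1, a nuclear protein that aids p53 in inducing death, had 124 and 155 CPM in E518K, 277 and 270.0 CPM in KO and 97.5 and 137 CPM in wt cells, with a change in KO of 1.22 ± 0.17 (adjusted p = 0.000856). Its E518K libraries were spread around wt clone 16, and E518K against wt gave 0.25 ± 0.16 (adjusted p = 0.306). Trp53inp1 was called higher there without wt clone 16 (0.52). Ei24, a protein of the endoplasmic reticulum, had 162 and 147 CPM in E518K, 269 and 252 CPM in KO and 119.5 and 163 CPM in wt cells. E518K against wt gave 0.13 ± 0.14 (adjusted p = 0.534), and Ei24 was called higher there without wt clone 16 (0.37). Its change was 0.88 ± 0.14 in KO against wt (adjusted p = 0.00156), while E518K differed from KO by -0.75 ± 0.14 (adjusted p = 0.00462), the second lost without E518K clone 15 (-0.67, adjusted p = 0.0553). Pidd1, the platform for caspase-2, had 20.8 and 19.2 CPM in E518K, 27.5 and 26.4 CPM in KO and 20.6 and 22.7 CPM in wt cells. Its change in KO was 0.32 ± 0.10 (adjusted p = 0.0247), lost without KO library 1 (0.28, adjusted p = 0.181) or KO library 3 (0.35, adjusted p = 0.113). Aen, an apoptosis-enhancing nuclease, was not called in KO against wt with all libraries (-0.09 ± 0.07, adjusted p = 0.263), and was called lower without wt clone 12 (-0.15). In E518K against wt edgeR with all libraries did not call it (0.195 ± 0.07, adjusted p = 0.0687). DESeq2 called it higher there (0.21, adjusted p = 0.0441), as did edgeR without wt clone 16 (0.25). It stood highest in E518K, at 105.7 and 106.3 CPM against 87.1 and 86.7 CPM in KO and 89.0 and 96.2 CPM in wt cells, and the call of E518K over KO (0.29 ± 0.07, adjusted p = 0.0112) did not pass when KO library 1, KO library 3 or E518K clone 8 was left out (0.29 in each fit, adjusted p of up to 0.108).

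The 3 death receptors lay at very different levels. Tnfrsf10b, the mouse receptor of the ligand TRAIL, had 23.2 and 22.9 CPM in E518K, 45.0 and 44.2 CPM in KO and 26.7 and 28.1 CPM in wt cells. KO was the highest and E518K the lowest group without overlap, and the change was 0.70 ± 0.08 in KO against wt (adjusted p = 0.000338), -0.95 ± 0.08 in E518K against KO (adjusted p = 0.000286) and -0.25 ± 0.08 in E518K against wt (adjusted p = 0.0546). The last was called by DESeq2 (-0.24, adjusted p = 0.0488) and by edgeR with upper-quartile scaling (-0.30, adjusted p = 0.0364). It was also called by edgeR without wt clone 12 (-0.28) or wt clone 16 (-0.21). Eda2r, the X-linked receptor of ectodysplasin A2, had 32.1 and 32.8 CPM in E518K, 49.8 and 48.6 CPM in KO but 9.52 and 28.3 CPM in wt clones 12 and 16. In E518K against wt it was not called with all libraries (0.78 ± 0.41, adjusted p = 0.202) and was called higher without wt clone 16 (1.77). In E518K against KO Eda2r was not called by edgeR with all libraries (-0.60 ± 0.40, adjusted p = 0.263). It was called lower there by limma voom (-0.60, adjusted p = 0.0135). So it was by edgeR with only the 4 libraries compared (-0.60, adjusted p = 4.37e-05) and without either wt clone (-0.60 in both fits). The wt clones differed by 2.97-fold, and the call in KO (1.38 ± 0.41, adjusted p = 0.0231) was lost without either KO or either E518K library (1.36 to 1.40, adjusted p from 0.0607 to 0.0662); the change was 0.80 without wt clone 12 and 2.37 without wt clone 16. Fas, the receptor of Fas ligand, was almost silent, with counts of 0 and 2 in E518K, 10 and 8 in KO and 0 and 0 in wt libraries. A count of 0 allows up to 3 counts by counting error alone, and Fas did not enter the test.

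Of 8 genes of growth arrest and the cell cycle, 5 were higher and 1 was lower in KO than in wt, 1 was higher in E518K than in wt, and 1 was higher and 5 lower in E518K than in KO. Over all genes tested these shares were, in the same order, 27.4%, 29.7%, 11.3%, 22.0% and 19.8%. Btg2, an antiproliferative cofactor of messenger RNA deadenylation, was at 20.7 and 19.9 CPM in E518K, 90.0 and 88.0 CPM in KO and 18.6 and 23.7 CPM in wt cells. Both E518K libraries lay within the wt range. The change was 2.08 ± 0.12 in KO against wt (adjusted p = 3.54e-05), -2.13 ± 0.12 in E518K against KO (adjusted p = 9.44e-05) and -0.06 ± 0.12 in E518K against wt (adjusted p = 0.75). Btg2 was called lower in E518K than in wt without wt clone 12 (-0.22). Ccng1, cyclin G1, which recruits a phosphatase to Mdm2, had 149.5 and 180.4 CPM in E518K, 364 and 347 CPM in KO and 102.3 and 152 CPM in wt cells. Its change was 1.48 ± 0.18 in KO against wt (adjusted p = 0.0005) and 0.38 ± 0.17 in E518K against wt (adjusted p = 0.157), while E518K differed from KO by -1.11 ± 0.18 (adjusted p = 0.00263). The E518K libraries were called higher than wt when wt clone 16 was left out (0.69). Ccng1 holds both features shown above, the decamer in its promoter and the seed match in its 3′ UTR, as do Ei24 and Polk.

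The polo-like kinases differed in direction. Plk2 had 8.69 and 9.44 CPM in E518K, 32.5 and 31.5 CPM in KO and 5.88 and 14.6 CPM in wt cells, and Plk3 had 14.8 and 15.1 CPM in E518K, 12.3 and 11.2 CPM in KO and 15.3 and 16.5 CPM in wt cells. For Plk2 the change in KO was 1.65 ± 0.35 (adjusted p = 0.00613), and it was 1.14 without wt clone 12 and 2.44 without wt clone 16. For Plk3 it was -0.43 ± 0.11 (adjusted p = 0.0118), lost without KO library 1 (-0.50, adjusted p = 0.0573) or KO library 3 (-0.37, adjusted p = 0.129). In E518K against KO, Plk2 stood at -1.82 ± 0.36 (adjusted p = 0.00608) and Plk3 at 0.35 ± 0.11 (adjusted p = 0.0376), and both calls were lost without E518K clone 8 (-1.76 and 0.37, adjusted p = 0.0692 and 0.107) or clone 15 (-1.86 and 0.35, adjusted p = 0.0573 and 0.113), and that of Plk3 also without KO library 1 (0.42, adjusted p = 0.131) or 3 (0.29, adjusted p = 0.273). The Plk3 span shares 84 bases with that of Tctex1d4, so some reads can be counted for both.

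Ckap2, a microtubule protein of the mitotic spindle, had 64.5 and 69.5 CPM in E518K, 105.4 and 107.4 CPM in KO and 52.8 and 58.4 CPM in wt cells. The groups were in the order KO, E518K, wt without overlap, with a change of 0.94 ± 0.08 in KO against wt (adjusted p = 0.000116) and 0.27 ± 0.08 in E518K against wt (adjusted p = 0.043). The second was lost without either E518K or either KO library (0.23 to 0.32, adjusted p from 0.084 to 0.198). Phlda3, which competes with the kinase Akt for membrane lipids, had 44.6 and 42.8 CPM in E518K, 68.0 and 66.1 CPM in KO and 41.2 and 39.1 CPM in wt cells, with a change in KO of 0.74 ± 0.07 (adjusted p = 0.000202). Gtse1, a microtubule protein that also restrains p53, and Zmat3, an RNA-binding protein, were called in no comparison by edgeR with all libraries; their largest log2 fold changes were 0.25 ± 0.08 for Gtse1 (E518K against wt, adjusted p = 0.0655) and -0.13 ± 0.10 for Zmat3 (E518K against KO, adjusted p = 0.297). DESeq2 called Gtse1 higher in E518K than in wt (0.26, adjusted p = 0.0305), and limma voom called it higher in E518K than in KO (0.13, adjusted p = 0.0474). Without wt clone 16 edgeR called both genes higher in KO than in wt (0.24 for Gtse1, 0.22 for Zmat3) and Gtse1 higher in E518K than in wt (0.37), and without wt clone 12 Zmat3 lower in E518K than in wt (-0.18). In E518K against KO edgeR called Gtse1 higher without either wt clone (0.13 in both fits) and Zmat3 lower without wt clone 12 (-0.13).

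**Figure D3:**
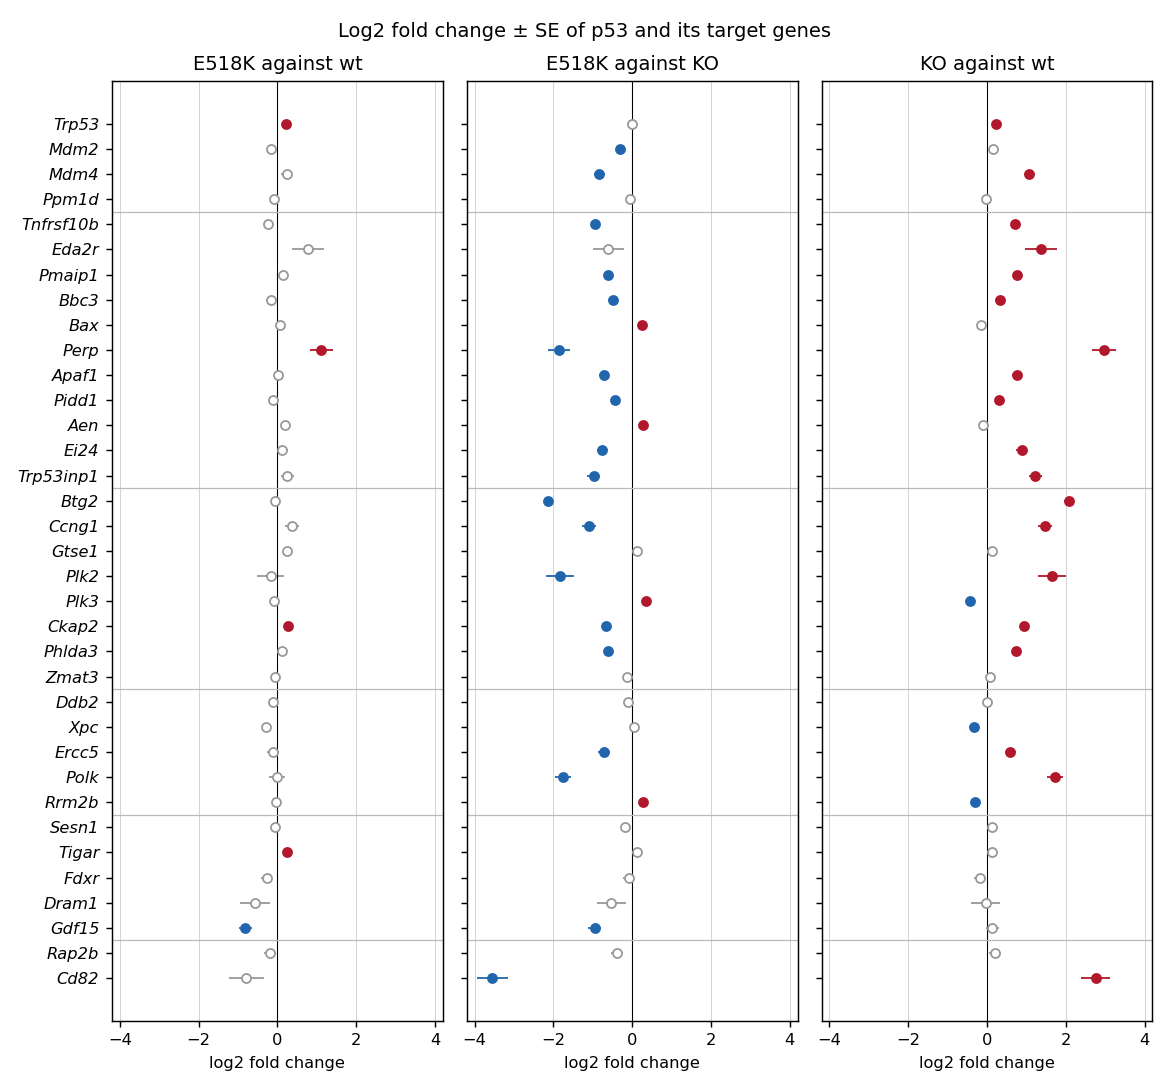
Log2 fold change with its standard error (x axis) of the 35 tested genes (y axis) in E518K against wt, E518K against KO and KO against wt; filled red and blue points passed the test as higher and lower, open points did not, and grey lines separate the roles in the order of the text. KO against wt has 19 red and 3 blue points, E518K against wt 4 and 1, and E518K against KO 4 and 19.

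Of 5 genes of DNA repair and nucleotide supply, 2 were higher and 2 lower in KO than in wt, against 27.4% and 29.7% of all genes tested. Between E518K and KO, 1 was higher and 2 were lower, against 22.0% and 19.8% of all genes. In E518K against wt 0 of the 5 were called by edgeR, DESeq2 or either limma fit. Xpc alone was below 0.05 in edgeR before adjustment, at 0.0359. Without wt clone 12 Ercc5 and Polk were called lower (-0.31 and -0.32), and without wt clone 16 Xpc was called lower (-0.42) and Polk higher (0.36). Polk, a polymerase that copies past damaged bases, had 10.5 and 11.2 CPM in E518K, 36.6 and 36.3 CPM in KO and 8.44 and 13.6 CPM in wt cells. Its E518K libraries lay between the wt clones, and the change was 1.73 ± 0.20 in KO against wt (adjusted p = 0.00046), -1.75 ± 0.20 in E518K against KO (adjusted p = 0.000818) and -0.02 ± 0.20 in E518K against wt (adjusted p = 0.95). The Polk span shares 388 bases with the predicted gene Gm17622. Ercc5, the nuclease XPG of nucleotide excision repair, had 17.3 and 17.3 CPM in E518K, 29.8 and 26.7 CPM in KO and 16.0 and 21.5 CPM in wt cells. Its change in KO was 0.59 ± 0.15 (adjusted p = 0.011), lost without KO library 1 (0.51, adjusted p = 0.0815).

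Rrm2b, the p53-inducible subunit of ribonucleotide reductase, was lower in KO. It had 179.8 and 172 CPM in E518K, 150.1 and 143 CPM in KO and 188 and 175 CPM in wt cells, with a change of -0.31 ± 0.07 in KO against wt (adjusted p = 0.00613), lost without KO library 3 (-0.28, adjusted p = 0.0801). E518K exceeded KO by 0.26 ± 0.07 (adjusted p = 0.0171), no longer called when KO library 1, KO library 3 or E518K clone 8 was left out (0.30, 0.23 and 0.23; adjusted p = 0.0873, 0.169 and 0.0991). Xpc, which recognises damage in DNA, had 28.1 and 30.1 CPM in E518K, 27.4 and 28.6 CPM in KO and 39.0 and 31.9 CPM in wt cells. Its change in KO of -0.34 ± 0.11 (adjusted p = 0.0328) was lost in all of the fits without 1 library except that without wt clone 16 (-0.37 to -0.19, adjusted p of up to 0.172). Ddb2, the other damage sensor of this pathway, lay between 19.1 and 21.6 CPM in the 6 libraries and was called in no comparison by edgeR; its span shares 2527 bases with Acp2.

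None of the 5 genes of metabolism, autophagy and secreted signals was called in KO against wt by edgeR, nor by DESeq2 or limma voom, and limma on log2(TPM + 1) called Tigar alone (0.16, adjusted p = 0.0312). At an unadjusted p under 0.05 the edgeR count was also 0. Of all genes tested, edgeR called 57.2% between KO and wt after adjustment. Without wt clone 12 Tigar and Gdf15 were called higher in KO (0.19 and 0.38), and without wt clone 16 Fdxr was called lower (-0.38). Gdf15, a secreted stress cytokine of the TGF-beta superfamily, was lowest in E518K, with 7.37 and 7.76 CPM there, 15.1 and 14.1 CPM in KO and 15.4 and 11.2 CPM in wt cells. The change was -0.81 ± 0.16 in E518K against wt (adjusted p = 0.015), while E518K differed from KO by -0.95 ± 0.16 (adjusted p = 0.0038). The first was lost without E518K clone 8 (-0.77, adjusted p = 0.0938) or clone 15 (-0.84, adjusted p = 0.107). Tigar, which lowers glycolytic flux, had 144 and 139 CPM in E518K, 130.7 and 130.7 CPM in KO and 126 and 114 CPM in wt cells, and its rise of 0.24 ± 0.07 in E518K against wt (adjusted p = 0.0457) was lost without either E518K or either KO library (0.17 to 0.31 over all 6 fits, adjusted p of up to 0.178). Sesn1, a sestrin that restrains mTORC1, lay between 31.2 and 36.3 CPM, and Fdxr, the mitochondrial ferredoxin reductase, between 16.9 and 23.3 CPM, and neither was called in any of the 3 comparisons by edgeR with all libraries. Sesn1 was lower in E518K than in KO by limma voom (-0.19, adjusted p = 0.0275) and by edgeR without either wt clone (-0.18 in both fits), and Fdxr was lower in E518K than in wt without wt clone 16 (-0.45, adjusted p = 0.00495). Dram1, a lysosomal protein of autophagy, was barely detected, with 22 and 26 counts in E518K, 34 and 40 in KO and 34 and 38 in wt libraries, and no difference was detectable at this depth.

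The last 2 genes act at the plasma membrane. Cd82, a tetraspanin, had 8 and 8 counts in E518K, 102 and 100 in KO and 16 and 12 in wt libraries. That is 0.111 and 0.110 CPM in E518K, 1.32 and 1.30 CPM in KO and 0.221 and 0.162 CPM in wt cells, and no 2 groups overlapped. The change was 2.76 ± 0.36 in KO against wt (adjusted p = 0.000745), -3.55 ± 0.39 in E518K against KO (adjusted p = 0.000672) and -0.78 ± 0.43 in E518K against wt (adjusted p = 0.225). Rap2b, a small GTPase, was called in no comparison by edgeR with all libraries, with 19.6 and 16.9 CPM in E518K, 24.5 and 23.4 CPM in KO and 17.7 and 23.6 CPM in wt cells; its span shares 3702 bases with B430305J03Rik. It was lower in E518K than in KO by DESeq2 (-0.39, adjusted p = 0.0434), by limma voom (-0.40, adjusted p = 0.00398) and by edgeR without either wt clone (-0.39 in both fits). It was also called lower in E518K than in wt without wt clone 12 (-0.37) and higher in KO than in wt without wt clone 16 (0.43).

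Leaving out each library in turn left 14 of the 22 calls in KO against wt in all 6 fits, namely Mdm4, Btg2, Phlda3, Apaf1, Perp, Ccng1, Polk, Plk2, Tnfrsf10b, Pmaip1, Cd82, Trp53inp1, Ckap2 and Ei24, all of them higher in KO. In E518K against KO it left 13 of 23, the same names without Plk2 and Ei24 and with Gdf15, all of them lower in E518K. Without KO library 3 the genes lower in KO than in wt numbered 0, without KO library 1 1, without either E518K clone 2 and without wt clone 16 5. The genes higher in E518K than in KO numbered 0 without KO library 1, KO library 3 or E518K clone 8, and 2 without E518K clone 15. In E518K against wt it left 0 of 5 calls. There the number of genes called was 0 without either E518K clone, 1 without either KO library, 13 without wt clone 12 (4 higher, 9 lower) and 18 without wt clone 16 (14 higher, 4 lower). How many of all called genes held in all 6 fits was not computed. Whether calls in the list were more or less stable than those of other genes is therefore not known. For 5 genes of the list that held in all 6 fits and whose E518K values are given above, E518K against KO stood at -0.63 ± 0.06 in Pmaip1, -0.73 ± 0.11 in Apaf1, -0.97 ± 0.17 in Trp53inp1, -0.62 ± 0.07 in Phlda3 and -0.67 ± 0.08 in Ckap2. Bbc3 (-0.49 ± 0.11), Pidd1 (-0.43 ± 0.10) and Ercc5 (-0.71 ± 0.15) were also called lower in E518K than in KO. The calls of Bbc3 and Pidd1 were lost without KO library 1, KO library 3 or E518K clone 15 (-0.51 to -0.36, adjusted p from 0.0726 to 0.109), and that of Ercc5 without KO library 1 or either E518K clone (-0.71 to -0.62, adjusted p from 0.061 to 0.0665).

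The libraries of E518K and wt did not overlap for 19 of the 35 genes, against 62.0% of all genes tested, with 9 higher (30.2% of all genes) and 10 lower (31.8%). E518K and KO did not overlap for 33, against 80.5% of all genes, with 6 higher (39.4%) and 27 lower (41.1%). KO and wt did not overlap for 29, against 81.7% of all genes, with 23 higher (40.1%) and 6 lower (41.6%).

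The 2 wt clones differed from each other in these genes more than the libraries of the other groups did. Clone 16 was higher than clone 12 in 25 of 35 genes (71.4%), against 49.9% of all genes with a level in both, and the median log2 ratio over the 35 was 0.14. A one-sided direction was also seen in KO, where library 3 was higher than library 1 in 8 of 35 genes (22.9%), against 49.9% of all genes. The median log2 ratio there was -0.04. E518K clone 15 was higher than clone 8 in 19 of 35 genes (54.3%), against 49.6% of all genes. The largest ratios of wt clone 16 over 12 were in Eda2r (1.57), Plk2 (1.31), Perp (0.93), Polk (0.69) and Ccng1 (0.57), which were all called higher in KO than in wt. The lowest was in Gdf15 (-0.45). The median size of the log2 ratio over the 35 genes was 0.08 between the E518K clones, 0.04 between the KO libraries and 0.25 between the wt clones, beside 0.13, 0.07 and 0.22 over all genes. Dgcr8 was also higher in wt clone 16 than in clone 12, as given above. Without wt clone 16 Polk and Plk2 were called higher in E518K than in wt, at 0.36 and 0.63 (adjusted p = 0.0173 and 0.00253), opposite in sign to their uncalled values of -0.02 and -0.17 with all libraries.

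**Figure D4:**
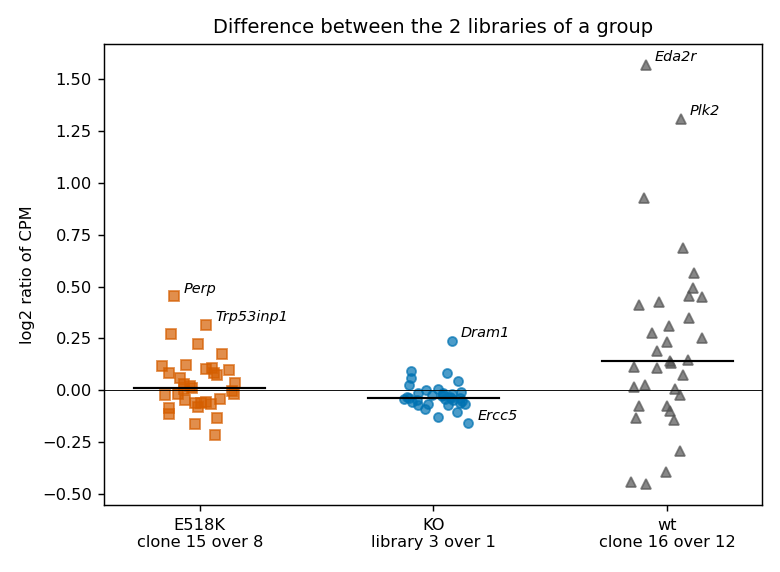
Log2 ratio of CPM between the 2 libraries of each group (y axis) for the 35 tested genes, as E518K clone 15 over 8, KO library 3 over 1 and wt clone 16 over 12 (x axis); each symbol is 1 gene, the line is the median and the 2 genes farthest from 0 are named. The wt ratios reach 1.57 in Eda2r, the E518K ratios 0.45 in Perp and the KO ratios 0.24 in Dram1.

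Other genes of the pathway were followed from 2 lists. Of 21 tested further p53 targets, 8 were higher (38.1%, against 27.4% of all genes) and 9 lower (42.9%, against 29.7%) in KO than in wt, with a median log2 fold change of -0.02. The cell-cycle inhibitor Cdkn1a, encoding p21, rose by 1.72 ± 0.13 in KO (adjusted p = 7.97e-05), with 124 and 113 CPM in E518K, 519 and 491 CPM in KO and 133 and 174 CPM in wt cells. Sfn, the 14-3-3 sigma protein, rose by 1.10 ± 0.08 and the epoxide hydrolase gene Ephx1 by 1.48 ± 0.11, whereas cyclin K, Ccnk, fell by 0.59 (adjusted p = 6.94e-05, 9.05e-05 and 0.000254). In E518K against wt, 3 of this list were higher (14.3%, against 11.3% of all genes) and 4 lower (19.0%, against 12.5%). Gadd45a, a growth arrest gene, rose by 0.72 ± 0.11 and Sfn by 0.31 ± 0.08 (adjusted p = 0.00549 and 0.0279). Trp53i11 and the proline pathway gene Aldh4a1 fell (-1.30 ± 0.22 and -0.38 ± 0.08, adjusted p = 0.00866 and 0.0194).

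Of 23 tested regulators of p53, 7 were higher and 7 lower in KO than in wt (30.4% each, near the 27.4% and 29.7% of all genes), with a median log2 fold change of 0.04. Between E518K and wt 2 were higher and 2 lower (8.70% each, against 11.3% and 12.5% of all genes). The damage-response protein gene Trp53bp1 rose by 0.64 ± 0.07 in KO (adjusted p = 0.000361), the zinc finger gene Zfp385a by 1.00 ± 0.13 and Ppp1r13b, which encodes the p53 cofactor ASPP1, by 0.68 ± 0.12 (adjusted p = 0.000613 and 0.00236). Ppp1r13l, which encodes the p53 inhibitor iASPP, was lower in KO and in E518K, with 14.2 and 13.2 CPM in E518K, 8.47 and 8.88 CPM in KO and 28.6 and 19.4 CPM in wt cells. Its change was -1.47 ± 0.18 in KO (adjusted p = 0.000594) and -0.81 ± 0.18 in E518K against wt (adjusted p = 0.0202). Trp53bp2, encoding ASPP2, fell in E518K against wt (-0.34 ± 0.08, adjusted p = 0.0256), and the ribosomal proteins Rpl5 and Rpl11, which bind Mdm2, rose (0.52 ± 0.13 and 0.23 ± 0.07; adjusted p = 0.0308 and 0.0499).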

How the data were processed

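Gene expression was measured by poly(A)-selected RNA sequencing (paired ends, 100 bp, BGISEQ-500, per the labels' protocols). The deposited counts are whole numbers per gene symbol, not normalized by the authors, and the deposited TPM values are those counts per length, scaled by the authors to the same sum in each library. The submitters' processing notes name STAR, bedtools and GRCm38.p6; settings and the handling of multiply mapped reads are not stated there. The length implied by count and TPM matched the genomic span of a gene (GENCODE M21) within 5% for 98.6% of 12885 genes and its exons for 3.21%, so introns appear to be counted. The span of 4 of the 36 genes overlaps another gene of the table.

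Counts were tested with edgeR 4.0.16 in R 4.3.3 (TMM factors, default filter with a minimum count of 10, robust quasi-likelihood fit of all 6 libraries by group, 3 residual degrees of freedom). CPM values use the TMM factors. Errors of log2 fold changes are standard errors (the size of the change over the root of its F), and p-values are adjusted over all genes tested. Alternatives used DESeq2 1.42.0 and limma 3.58.1 (the TPM with a pseudocount of 1). The edgeR step was also tested on simulated data. The 36 genes, the 2 further lists, the tests and the alternatives were chosen with earlier results of these data known. Every one of the 36 genes is named. From the further lists the 4 genes with the smallest p in KO against wt and in E518K against wt are named, and Cop1 was read under its older symbol Rfwd2. Replicates in each group differed by more than sampling noise (chi-square per degree of freedom 22.8 in E518K, 3.63 in KO and 54.3 in wt).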

Additional observations from a re-analysis of the deposited data

How the results depend on the processing

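For the called genes of the p53 list, the direction in KO against wt and in E518K against KO was the same under every alternative run; the 2 further lists were not rerun gene by gene. Opposite signs with a call came up in E518K against wt, for Polk (0.36) and Plk2 (0.63) without wt clone 16, both uncalled with all libraries and both called lower without wt clone 12 (-0.32 and -0.68); other sign changes were in uncalled values. Counts are given for the p53 list, then for all genes. Without 1 library at a time, 15 to 28 genes of the list were called in KO against wt (14 to 23 higher, 0 to 5 lower), 0 to 18 in E518K against wt (0 to 14 higher, 0 to 9 lower) and 15 to 29 in E518K against KO (0 to 6 higher, 13 to 23 lower). Over all genes these ranges were 6084 to 10958, 644 to 6987 and 3285 to 9482, beside 9429, 3917 and 6902 with all libraries. In E518K against wt, the 5 called genes of the list (4 higher, 1 lower) became 3 with upper-quartile scaling (1 higher, 2 lower), 8 with DESeq2 (6 higher, 2 lower), 1 with limma on log2(TPM + 1) (0 higher), 2 with limma voom (1 higher) and 1 with only the 4 libraries compared (0 higher; 1999 of all genes). With the KO libraries summed to 1, the list had 0 genes lower in KO against wt (6163 of all genes called), 1 gene called in E518K against wt (0 higher; 1909 of all genes) and 0 genes higher in E518K against KO (3267 of all genes). Limma on log2(TPM + 1) also gave 0 genes of the list higher in E518K against KO. With only the 4 libraries compared, E518K against KO had 29 genes of the list called (6 higher, 23 lower), beside 23 with all libraries. The calls gained were Eda2r, Gtse1, Rap2b, Sesn1, Tigar and Zmat3. Over all genes 9530 were called in that fit, beside 6902. KO against wt had 20 genes of the list called under the same setting (18 higher, 2 lower), beside 22. A lone library left in a group was taken to vary like the other groups. The cause of the changes was not tested. Each fit without 1 library has fewer residual degrees of freedom, while the number of genes called rose in some and fell in others. The common coefficient of variation between the libraries of a group was 20.6% in wt, 9.2% in E518K and 2.6% in KO. Of all called genes in E518K against wt, 47.5% were higher, against 37.5% with upper-quartile scaling, 26.8% with limma on log2(TPM + 1) and 60.1% and 60.2% without E518K clone 8 or 15. In E518K against KO the share was 52.7%, and 40.7% with limma on log2(TPM + 1). No paired analysis was possible because the groups share no replicate numbers. With 2 libraries per group, small changes such as those of Trp53 lie near the limit of the test, and the counts of Fas and Dram1 are too low to compare.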
